A study of Mus musculus with 6 samples.

Results

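The gene group described here comprises 10 genes of fibroblast growth factor (FGF) signalling, namely the ligand genes Fgf3, Fgf4, Fgf5, Fgf8, Fgf15, Fgf17 and Fgf18, the FGF homologous factor gene Fgf13, and the receptor genes Fgfr1 and Fgfr2. Members were every probe set whose array annotation carried one of these symbols, which gave 22 probe sets for 10 of the 18193 genes on the array. The arrays came from mouse E14 embryonic stem cells (129P2/OlaHsd background) that carried a Venus reporter of Msgn1 and had differentiated on gelatin for 4 days (3 biological replicates) or 3 days (3 biological replicates). On both days the cells were grown with serum, 0.5% DMSO, R-spondin3 at 10 ng/mL, which strengthens Wnt signals, and Noggin at 200 ng/mL, which blocks bone morphogenetic proteins. No FGF is among the added agents that the labels name. RNA was taken from Venus-positive cells only, from 1 cell line, and 1 Affymetrix array was hybridised per sample.

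FGF ligands are secreted proteins that bind receptor tyrosine kinases together with heparan sulfate and switch on the RAS and ERK cascade, whose output includes its own inhibitors of the Dusp and Spry families. In the mouse embryo, Fgf8 and Fgf4 are made in the primitive streak and the posterior presomitic mesoderm, where they act together to hold cells in an unsegmented state, and Fgfr1 is the main receptor of that tissue. Fgf5 is a classical marker of the epiblast before and during gastrulation. Fgf8, Fgf17 and Fgf18 form 1 subfamily of closely related ligands, and Fgf4 and Fgf5 belong to another. Fgf15 encodes an endocrine-type FGF, and Fgf13 encodes a factor that stays inside the cell and is not a ligand of the receptors.

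Values are MAS5 signals, a linear measure of brightness per probe set. Trimmed mean signals ran from 160 to 162 over the 6 arrays, and Pearson correlations of log2 signal were 0.933 to 0.948 within day 4, 0.941 to 0.946 within day 3 and 0.924 to 0.939 across days. Of 8 marker genes of presomitic mesoderm, 8 had a signal above the filter level of 13.5 that is explained below. So did 8 of 8 epiblast, 6 of 6 endoderm and 6 of 6 cardiac and lateral plate markers. For neural markers it was 2 of 6, for endothelium and blood 4 of 6, and for all genes 12285 of 18193. The count therefore does not set presomitic mesoderm apart. Msgn1, whose reporter set the gate, fell to 33.2 ± 7.06 at day 4, against 74.6 ± 15.0 at day 3 (SD over 3 arrays; limma adjusted p = 0.00723). Tbx6, a transcription factor of the same tissue, was at 124 ± 29.5 at day 4 and 132 ± 6.99 at day 3 (adjusted p = 0.672). Day 4 replicate 1 stood apart, with a ratio of 3′ to 5′ signal of 14.0 for the Gapdh control probe sets, against 2.43 to 3.19 on the other 5 arrays. For 229 of 12285 genes (1.86%) its signal was under 0.5 times the lower of the other 2 day 4 signals, and values without this array are given where they change a call or a count of calls in a list.

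Each gene was represented by its brightest probe set and tested if its mean log2 signal exceeded that of 40% of probe sets, which is a signal of 13.5. Differences are log2 changes, day 4 minus day 3, given with their standard error. Of the 10 genes, 9 were tested and Fgf18 lay under the filter level. At day 4, 4 of the 9 fell (Fgf5, Fgf17, Fgf13 and Fgfr1) and 0 rose (limma, adjusted p under 0.05 over all 12285 genes), and at an unadjusted p under 0.05 the counts were also 4 and 0. Over all genes tested, 10.7% fell and 11.5% rose. The median change of the 9 genes was -0.39, against -0.01 over all genes tested. Without day 4 replicate 1 the counts were again 4 and 0, where 14.5% of all genes fell and 14.2% rose, and without day 3 replicate 3 the counts were 2 and 0. With every probe set tested on its own, 3 of the 14 member probe sets above the filter level fell, against 8.53% of all probe sets tested that way. Every day 4 array lay below every day 3 array in 4 of the 9 genes, against 20.6% of all genes tested. These are the 4 genes called on the same arrays, so the pattern is no separate support for the calls. As the arrays hold bulk RNA, fewer cells of a type and less RNA per cell cannot be told apart.

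**Figure D1:**
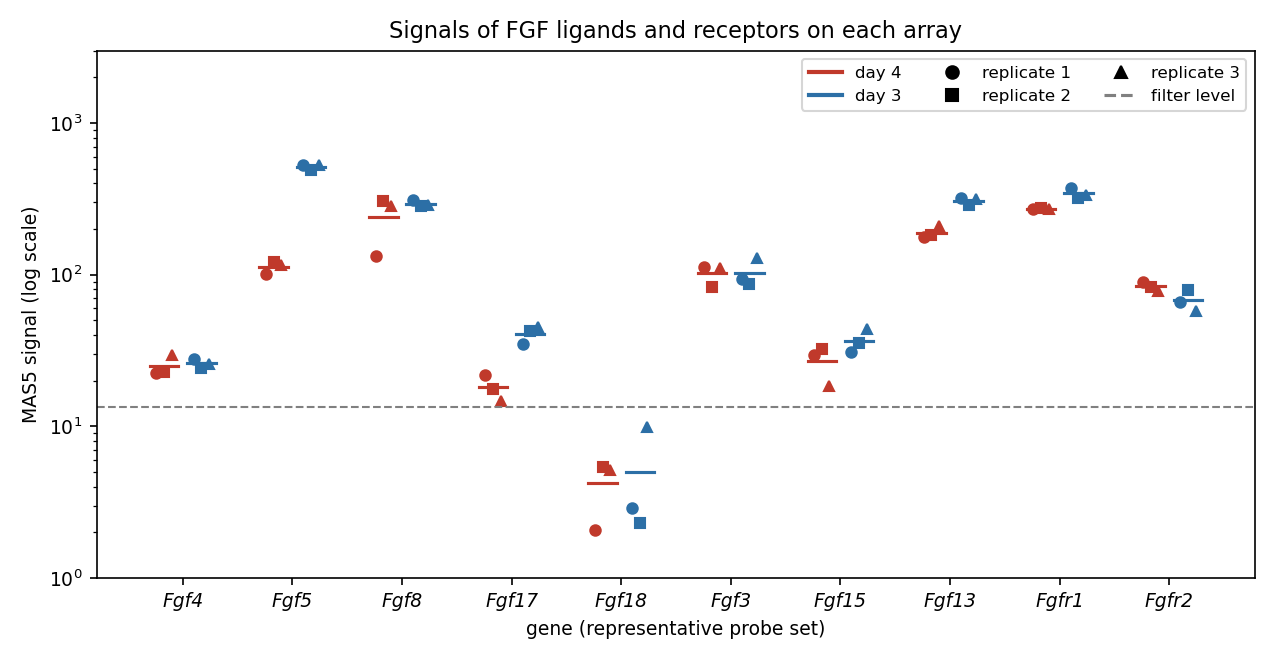
MAS5 signal (log scale) of the brightest probe set of each of the 10 genes, with 1 marker per array (shape gives the replicate), day 4 in red left of day 3 in blue, horizontal bars at the mean, and a dashed line at the filter level of 13.5. Day 4 signals of Fgf5, Fgf17, Fgf13 and Fgfr1 lie below all of their day 3 signals, Fgf8 has 1 low day 4 array, and Fgf18 lies under the line on every array.

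The subfamily of Fgf4 and Fgf5 held the largest fall among the 9 genes tested. Fgf5 (probe set 1438883_at) had signals of 101, 122 and 115 at day 4, against 529, 490 and 531 at day 3. The 3 values of each day lay close together, and the days were far apart. The change was -2.20 ± 0.11, or 4.59-fold lower at day 4 (limma adjusted p = 5.64e-06), and it stayed between -2.26 and -2.12 when any single array was left out. A second Fgf5 probe set, 1426186_a_at, was dim and lay under the filter level, with 1.46, 3.92 and 6.17 at day 4 against 19.3, 15.1 and 9.55 at day 3. It was also lower on every day 4 array, by -2.10 ± 0.68, but did not pass when every probe set was tested on its own without a filter (adjusted p = 0.0918).

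Fgf4, which in mouse supports the inner cell mass and later the presomitic mesoderm, was near the filter level on both days. Its brightest probe set, 1450282_at, read 22.5, 22.7 and 29.6 at day 4, against 27.8, 24.3 and 25.9 at day 3. The days overlapped, and the change was -0.07 ± 0.25 (adjusted p = 0.877, 95% interval -0.64 to 0.50). The other 3 Fgf4 probe sets lay under the filter level and went in different directions, 1420086_x_at by -1.88 ± 0.58, 1449729_at by 0.83 ± 0.75 and 1420085_at by 1.25 ± 0.90, none past the threshold without a filter (adjusted p = 0.0778, 0.578 and 0.47). All 3 derive from the same array accession, so they share a source sequence. The log2 signal of Fgf5 minus that of Fgf4 on the same array was 2.17, 2.42 and 1.96 at day 4, against 4.25, 4.34 and 4.36 at day 3. This difference shifted by -2.13 with no overlap between days. The 2-sided exact permutation p was 0.1, the lowest value possible with so few arrays. Adjusted over the 5 pairs of genes compared this way, it was 0.25, so this test could not establish unequal change. The 95% intervals of the 2 changes, -2.45 to -1.95 for Fgf5 and -0.64 to 0.50 for Fgf4, did not overlap.

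The promoters of this pair are shown because the 2 genes are of 1 subfamily and Fgf5 fell while Fgf4 did not pass. RefSeq promoters (GRCm38.p6, 250 bases before to 50 after the start of the gene) were found for 6 of the 10 genes. The windows below are 300 bases, 5′ to 3′, chr5:98253934-98254233 on the plus strand for Fgf5 and chr7:144861136-144861435 on the plus strand for Fgf4. Capitals mark GC boxes (GGGCGG or its reverse complement CCGCCC) and TATA boxes (TATAAA or TTTATA).
Fgf5: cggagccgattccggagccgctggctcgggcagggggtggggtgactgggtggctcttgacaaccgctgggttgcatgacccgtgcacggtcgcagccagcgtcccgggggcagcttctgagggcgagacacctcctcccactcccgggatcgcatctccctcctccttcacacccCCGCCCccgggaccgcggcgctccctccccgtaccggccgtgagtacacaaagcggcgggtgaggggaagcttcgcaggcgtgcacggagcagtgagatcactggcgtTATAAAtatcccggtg
Fgf4: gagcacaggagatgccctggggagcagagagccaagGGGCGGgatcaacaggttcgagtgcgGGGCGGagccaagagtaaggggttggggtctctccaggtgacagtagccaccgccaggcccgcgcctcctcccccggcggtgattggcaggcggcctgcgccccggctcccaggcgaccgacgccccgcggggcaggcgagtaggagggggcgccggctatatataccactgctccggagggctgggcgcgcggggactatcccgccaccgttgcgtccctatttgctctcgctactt
The Fgf5 window held 1 GC box and 1 match to the TATA box letters, and the Fgf4 window held 2 GC boxes. The Fgf5 match lies in the last 50 bases, after the start of the gene. Only exact matches were marked, so the run tatatata before the start of Fgf4 was not counted. The windows therefore do not show that the 2 genes differ in having a TATA box. Of 32851 promoters, 35.7% held a GC box and 13.6% a TATA box. GC content was 68.3% for Fgf5 and 69.7% for Fgf4, with 29 and 28 CpG dinucleotides, against medians of 52.7% and 7 over all promoters. None of 4 further motifs was found in either window on either strand, namely the octamer ATGCAAAT (in 1.74% of all promoters), the TCF/LEF core CTTTGAT (3.73%), the ETS core CCGGAAG (8.86%) and the T-box site AGGTGTGA (1.28%).

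In the Fgf8 subfamily, Fgf17 fell, Fgf8 did not pass and Fgf18 was under the filter level. Fgf17 (probe set 1421523_at), expressed in mouse in the streak and later at the midbrain-hindbrain boundary, read 21.8, 17.6 and 14.7 at day 4, against 34.8, 42.8 and 45.0 at day 3. No day 4 value reached the lowest day 3 value, and the change was -1.19 ± 0.26, or 2.28-fold lower (limma adjusted p = 0.011). The call was lost without day 3 replicate 3 (change -1.12, adjusted p = 0.0553). The other Fgf17 probe set, 1456239_at, lay under the filter level and read 14.5, 1.63 and 11.3 at day 4, against 23.3, 24.9 and 23.3 at day 3. It too was lower on every day 4 array, by -1.89 ± 0.77 (adjusted p = 0.181 without a filter), and with the mean of both probe sets the change was -1.54 (adjusted p = 0.0465).

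Fgf8 (probe set 1451882_a_at), the ligand of this subfamily best known from the streak and the presomitic mesoderm, read 132, 305 and 282 at day 4, against 310, 283 and 289 at day 3. Replicates 2 and 3 of day 4 fell within or near the day 3 range, and replicate 1 was at less than 0.5 times either of them. The change was -0.39 ± 0.27 (adjusted p = 0.336, 95% interval -0.99 to 0.22), and without day 4 replicate 1 it was -0.0042 (adjusted p = 0.982). This is the array with the high ratio of 3′ to 5′ control signal, and the part of RNA quality in its low Fgf8 value was not tested. Fgf8 had 1 probe set, so no other probe set bears on it. Among the 14 member probe sets above the filter level, 2 had a signal on this array under 0.5 times the lower of the other day 4 signals, Fgf8 (0.468 times) and the Fgfr1 probe set 1425911_a_at (0.318 times).

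Fgf18 (probe set 1449545_at) read 2.07, 5.41 and 5.11 at day 4, against 2.87, 2.30 and 9.87 at day 3. The days overlapped, and without a filter the change was -0.06 (adjusted p = 0.978 with every probe set tested on its own). Within the subfamily, Fgf17 minus Fgf8 on the same array shifted by -0.80 between the days with overlapping values (exact permutation p = 0.4, adjusted 0.5), and by -1.33 without day 4 replicate 1. The shifts of Fgf18 minus Fgf8 and of Fgf18 minus Fgf17 were 0.33 and 1.13 (exact permutation p = 0.6 and 0.2, adjusted 0.6 and 0.333). These last 2 differences rest on Fgf18 signals under the filter level.

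Fgf3 and Fgf15, which adjoin Fgf4 on chromosome 7 in the order Fgf3, Fgf4, Fgf15 of the RefSeq annotation (GRCm38.p6), did not pass. Fgf3 (probe set 1441350_at), a ligand of the mouse tail bud and inner ear, read 112, 83.2 and 110 at day 4, against 93.2, 87.1 and 128 at day 3. Its change was -0.01 ± 0.19 (adjusted p = 0.987, 95% interval -0.43 to 0.41) and the values of the days overlapped. The other Fgf3 probe sets gave -0.22 ± 0.14 for 1441914_x_at and -0.00 ± 0.20 for 1422923_at (adjusted p = 0.309 and 0.996 with every probe set tested on its own). Fgf15 (probe set 1418376_at) read 29.6, 32.5 and 18.4 at day 4, against 31.0, 35.6 and 43.7 at day 3. The change was -0.48 ± 0.28 (adjusted p = 0.258, 95% interval -1.12 to 0.16), or -0.23 without day 4 replicate 3, its lowest array. A fall of the size measured for Fgfr1 lies within the interval of each of these genes.

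Fgf13 (probe set 1418497_at), whose product binds sodium channels and microtubules and does not activate the receptors, read 176, 182 and 209 at day 4, against 318, 289 and 316 at day 3. The days did not overlap, and the change was -0.71 ± 0.11, or 1.63-fold lower (limma adjusted p = 0.00235). The change was between -0.78 and -0.66 when any single array was left out. Its other probe set, 1418498_at, is made from the same array accession and lay near but under the filter level, at 8.07, 22.9 and 20.6 at day 4 against 3.25, 23.2 and 14.6 at day 3. It pointed upward without passing (0.60 ± 0.76, adjusted p = 0.712 without a filter), and with the mean of both the Fgf13 change was -0.05 (adjusted p = 0.939).

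**Figure D2:**
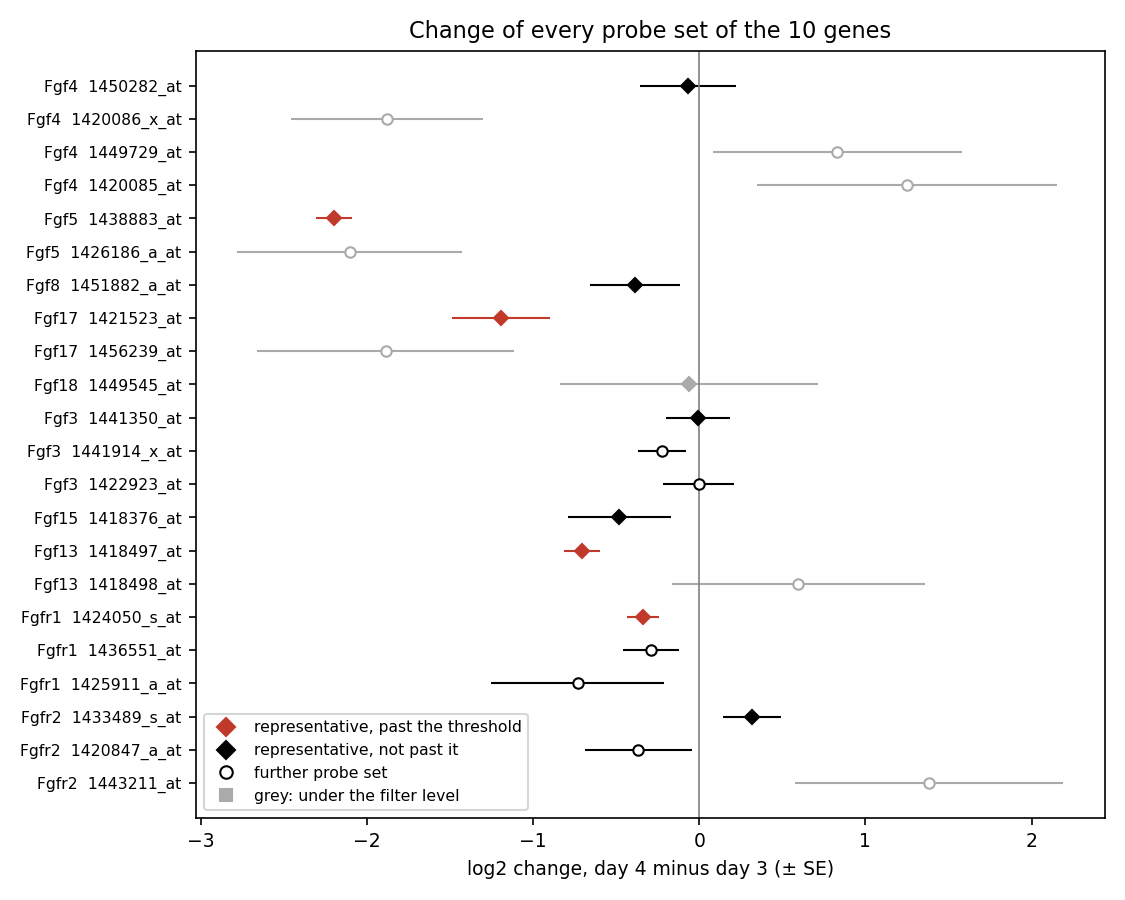
Log2 change, day 4 minus day 3, of all 22 probe sets of the 10 genes (horizontal bars, ± SE from the fit of every probe set without a filter). Diamonds are the brightest probe set of a gene, red where it passed the threshold, open circles are further probe sets, and grey ones lie under the filter level of 13.5. The red ones are Fgf5, Fgf17, Fgf13 and Fgfr1, and the widest bars belong to grey probe sets.

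Of the receptors, Fgfr1 fell slightly and Fgfr2 did not pass. Fgfr1 (probe set 1424050_s_at) read 270, 275 and 271 at day 4, against 374, 323 and 336 at day 3. The day 4 values were nearly the same on all arrays and lay below every day 3 value, and the change was -0.34 ± 0.10, or 1.26-fold lower (limma adjusted p = 0.0395). The call rested on a narrow margin, as it was lost without any single array other than day 4 replicate 1 (adjusted p = 0.0676 to 0.115). It was also lost with the replicate number as a block (adjusted p = 0.0547), with a variance that did not follow the signal (0.0584), with every probe set tested on its own (0.0515), with its probe sets averaged (0.195) and with suffixed probe sets left out (0.23). The other Fgfr1 probe sets were lower at day 4 by -0.29 ± 0.16 for 1436551_at, with no overlap between the days, and by -0.73 ± 0.50 for 1425911_a_at, with overlap (adjusted p = 0.248 and 0.35).

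Fgfr2 (probe set 1433489_s_at), whose splice forms are typical of epithelium or mesenchyme, read 90.1, 83.4 and 77.5 at day 4, against 65.6, 79.3 and 57.9 at day 3. The values of the days overlapped by 1 array of each, and the change was 0.32 ± 0.16 (adjusted p = 0.197, 95% interval -0.05 to 0.68). The probe set 1420847_a_at went the other way, with 20.3, 21.8 and 18.2 at day 4 against 25.7, 32.9 and 20.3 at day 3 (-0.37 ± 0.29, adjusted p = 0.422), and 1443211_at lay under the filter level at 16.0, 2.32 and 12.1 against 3.66, 2.88 and 2.39. Which splice forms each probe set reads is not given in the sources used here. Fgfr2 minus Fgfr1 on the same array was -1.58, -1.72 and -1.81 at day 4, against -2.51, -2.02 and -2.54 at day 3. The difference between the 2 receptor signals shifted by 0.65 with no overlap (exact permutation p = 0.1, the smallest possible, adjusted 0.25), so unequal change was not established. The shift was between 0.57 and 0.82 when any single array was left out. It rests on the brightest Fgfr2 probe set, as 1420847_a_at had a change of -0.37, against -0.34 for Fgfr1. The only Fgfr2 probe set without a suffix is 1443211_at, under the filter level, so leaving out suffixed probe sets gives no usable shift.

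**Figure D3:**
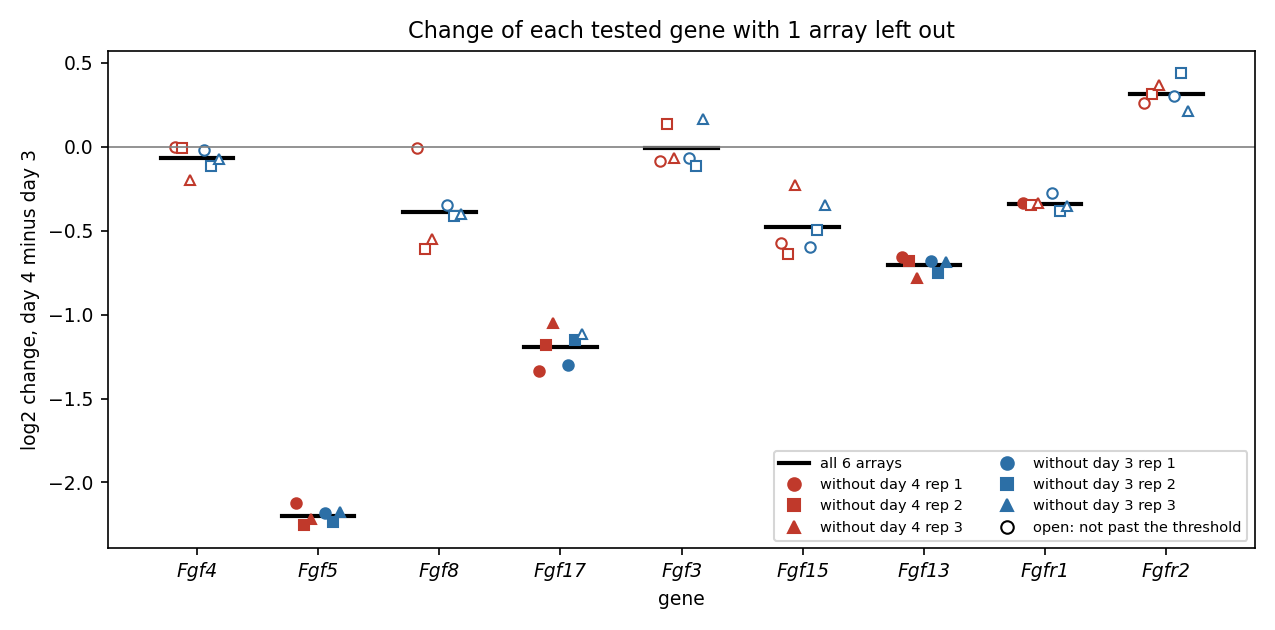
Log2 change, day 4 minus day 3, of each of the 9 tested genes with all 6 arrays (black bars) and with 1 array left out (red, a day 4 array; blue, a day 3 array; shape gives the replicate; filled where the adjusted p is under 0.05). Fgf5 and Fgf13 stay filled throughout, Fgf17 opens without day 3 replicate 3, Fgfr1 is filled only without day 4 replicate 1, and Fgf8 moves to -0.0042 without that array.

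FGF genes outside the group were mostly dim. For comparison with the counts below, 10.7% of all genes tested fell and 11.5% rose, or 14.5% and 14.2% without day 4 replicate 1. Of 14 other FGF genes, 5 were tested, and 0 rose and 0 fell (limma, and at an unadjusted p under 0.05, 0 and 1). The 14 include Fgf11, Fgf12 and Fgf14, FGF homologous factor genes like Fgf13, all under the filter level. Of 11 other receptors, coreceptors and binding proteins, 7 lay above the filter level and were tested. At an unadjusted p under 0.05, 3 rose and 1 fell. With the adjusted p, 1 rose and 0 fell, or 2 and 1 without day 4 replicate 1. The 1 that rose was Flrt2, a membrane protein of a family that binds FGF receptors, with 114, 98.2 and 112 at day 4 against 30.6, 39.2 and 49.2 at day 3. All its day 4 values were above all its day 3 values, and the change was 1.47 ± 0.20 (adjusted p = 0.000925).

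Of 21 heparan sulfate genes tested, 3 rose and 4 fell, or 3 and 5 without day 4 replicate 1 (median change -0.09). Over all genes tested, 22.2% passed in either direction. The share of this list that passed was somewhat higher, and that of the signal transducers in the next paragraph lies near it. Hs6st2, which adds sulfate groups to heparan sulfate, read 190, 134 and 129 at day 4, against 372, 391 and 415 at day 3 (-1.40 ± 0.15, adjusted p = 0.000312). The glypican Gpc4, a heparan sulfate carrier, read 142, 144 and 110 at day 4, against 278, 266 and 360 at day 3 (-1.19 ± 0.16, adjusted p = 0.000861). In both genes the days did not overlap. Another glypican, Gpc6, rose by 0.67 ± 0.11 (adjusted p = 0.0027). Sulf1, which removes sulfate groups from heparan sulfate, rose by 0.51 ± 0.08 (adjusted p = 0.00198), a call lost with the mean over its probe sets (0.08, adjusted p = 0.68).

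Of 19 tested genes that carry the signal from receptor to ERK and related branches, 3 rose and 1 fell, or 4 and 1 without day 4 replicate 1, around a median change of -0.03. Plcg1, a phospholipase bound by FGF receptors, rose by 0.57 ± 0.08, and the kinase gene Braf by 0.45 ± 0.09 (adjusted p = 0.00103 and 0.00772). Sos2, an exchange factor for RAS, rose by 0.47 ± 0.12 (adjusted p = 0.0184), but this call needed all arrays save day 4 replicate 1 or day 3 replicate 3, and dropping any of the other 4 gave an adjusted p of up to 0.0745. Grb2, an adaptor between receptor and RAS, fell by 0.54 ± 0.11 (adjusted p = 0.00708). The calls of Plcg1, Braf and Grb2 were lost with the mean over their probe sets (adjusted p = 0.219, 0.128 and 0.275).

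Feedback and target genes of the pathway split in direction, with 4 of 16 tested higher and 6 lower, or 5 and 8 without day 4 replicate 1 (median change -0.23). Unlike the transducer list, a larger share passed than the 22.2% of all genes tested. The list was chosen with earlier results of these data known. The inhibitors of the pathway on this list did not move one way. The ERK phosphatase genes Dusp6 and Dusp4 fell by 1.23 ± 0.12 and 0.87 ± 0.08, and the inhibitor gene Spry4 by 1.12 ± 0.14 (adjusted p = 0.000193, 0.00012 and 0.000558). The inhibitor genes Spry2 and Il17rd, named after their values were seen, rose by 0.51 ± 0.10 and 0.43 ± 0.07 (adjusted p = 0.00772 and 0.00366). Egr1, an immediate early gene, rose by 0.90 ± 0.09 (adjusted p = 0.000208). The others that passed, also named after their values were seen, were Fos, which rose, and Ier3, Myc and Etv5, which fell. The calls of Myc and Etv5 were lost with every probe set tested on its own (limma adjusted p = 0.0513 and 0.0629). Etv4, an ETS factor induced by FGF in many tissues, read 21.0, 53.7 and 67.9 at day 4, against 79.6, 101 and 91.4 at day 3. All its day 4 values were below its day 3 values, and it did not pass (-1.09 ± 0.37, adjusted p = 0.0642), but passed without day 4 replicate 1 at a smaller change (-0.58, adjusted p = 0.0312) and without day 4 replicate 3 (-1.43, 0.0247). It also passed with the replicate block (0.0235), quantile normalization (0.0447) and array weights (-0.78, 0.0191), whereas with its probe sets averaged the change was -0.27 (0.592). Its relative Etv5, named after its values were seen, read 324, 634 and 693 at day 4, against 811, 922 and 925 at day 3 (-0.76 ± 0.24, adjusted p = 0.0497), or -0.42 without that array (adjusted p = 0.00457). As with Fgf8, day 4 replicate 1 was the lowest day 4 array for both Etv genes, at 0.392 and 0.511 times the lower of the other day 4 signals. Spry4 was also lowest on it, at 0.90 times, and Dusp6 read 550, 548 and 655 at day 4, against 1149, 1492 and 1483 at day 3.

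**Figure D4:**
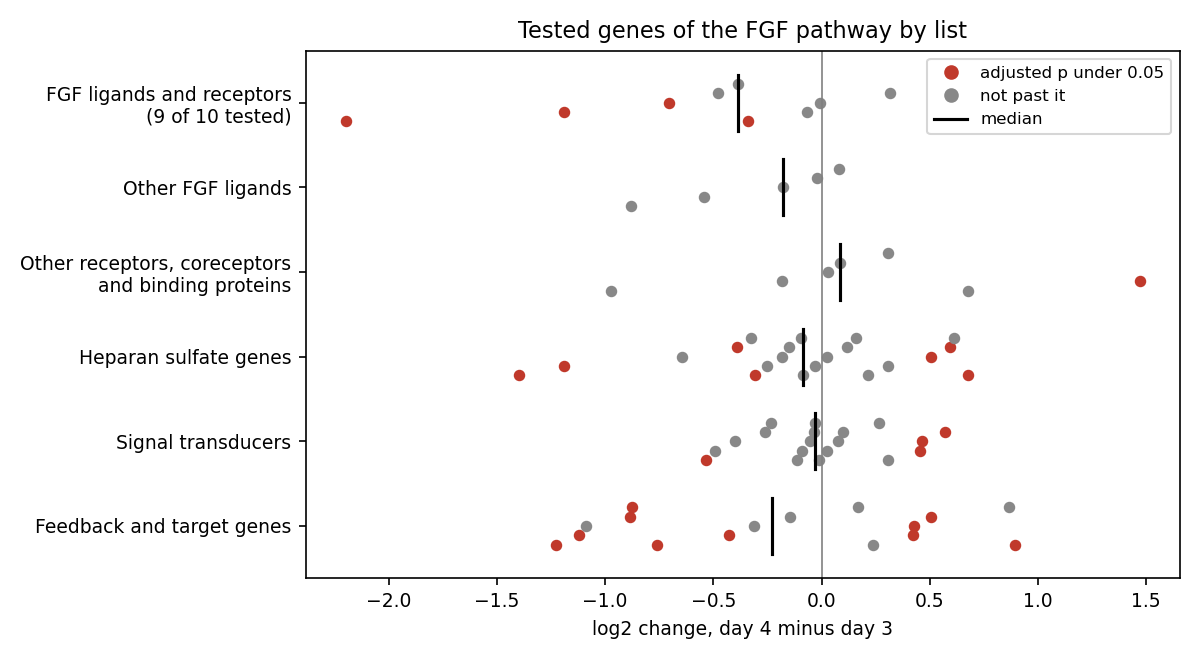
Log2 change, day 4 minus day 3, of every tested gene of the FGF group and of 5 further lists of the pathway (1 dot per gene, red where the adjusted p is under 0.05, black line at the median). The 4 red dots of the FGF group all lie below 0, at -2.20 to -0.34, whereas the lists of heparan sulfate, transducer and feedback genes have red dots on both sides.

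Among marker lists of cell types, those of epiblast and of endoderm held falls and no rises, and the others did not move one way. Over all genes tested, 10.7% fell and 11.5% rose, or 14.5% and 14.2% without day 4 replicate 1, and each list is short. Of 8 epiblast and pluripotency markers, of which Fgf5 is not one, 5 fell and 0 rose, or 4 and 0 without day 4 replicate 1. Their summed signal was 6145 to 6407 at day 4, against 7917 to 8205 at day 3. Most of this was Tdgf1, with means of 5310 at day 4 and 6279 at day 3. Without Tdgf1 the sum was 901 to 1037 at day 4, against 1693 to 1859 at day 3. Of 6 markers of definitive endoderm, 3 fell and 0 rose, or 3 and 1 without day 4 replicate 1. Their sum was 278 to 293 at day 4 against 445 to 555 at day 3. Without Gsc, whose signal differed most, it was 198 to 211 at day 4 against 220 to 277 at day 3. Of the 8 presomitic markers, 1 rose (Rspo3) and 1 fell (Msgn1), with a sum of 8256 to 8883 at day 4 against 6904 to 7527 at day 3. Without Rspo3, the sums overlapped (5853 to 6001 at day 4, 5656 to 6208 at day 3). Of 6 neural markers, 4 lay under the filter level, among them Sox1 and Olig2, 0 of the other 2 passed (at an unadjusted p under 0.05, 1 fell), and the sums overlapped (54.2 to 68.9 at day 4, 59.1 to 98.5 at day 3). Of 6 cardiac and lateral plate markers, 3 rose and 1 fell, with a sum of 992 to 1072 at day 4 against 743 to 803 at day 3. Without Isl1, whose signal differed most, these sums overlapped (482 to 557 at day 4, 507 to 589 at day 3). Of 6 markers of endothelium and blood, 2 lay under the filter level, Kdr rose and Etv2 fell, with a sum of 617 to 873 at day 4 against 596 to 616 at day 3. Without Kdr, that sum was lower at day 4 (184 to 271) than at day 3 (371 to 413). Tdgf1, Gsc, Rspo3, Isl1, Kdr and Etv2 were named after their values were seen. No marker was listed at 0. The part of these cell types in the changes of Fgf5, Fgf17, Fgf13 and Fgfr1 was not tested.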

How the data were processed

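The data are linear signal intensities of 45101 probe sets on 6 arrays, deposited by the authors. Per the submitters' processing notes they come from MAS5. Its version and scaling target were not found in the sources used here. Per the labels' protocols, RNA was amplified in 2 rounds and extracted with Trizol or a column kit, with no record of which per sample. Array means, leaving out 2% of probe sets at each end, agreed within 5%, so no scaling was added. Probe sets with 1 gene symbol (34945, controls left out) were named from the platform annotation. A suffix _s_at, _a_at or _x_at marks probe sets that may read several transcripts.

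Analysis used log2 signal in R 4.3.3 with limma 3.58.1 (lmFit, eBayes with trend, day as the only term, 2-sided, Benjamini-Hochberg over 12285 genes, threshold 0.05). No block was used, as the labels do not say that same-numbered replicates were cultured together. As a check, same-numbered replicates did not deviate together (r = 0.0668, 0.011 and -0.00051). Differences between 2 members on an array were tested by exact permutation. Named in full were the 10 members, up to 4 called genes of each pathway list with the smallest p, and Msgn1, Tbx6, Dusp6, Spry4 and Etv4. Members and lists were chosen with earlier results of these data known. Alternatives were an offset of 4.14, quantile normalization, median centring, no filter or the 60th percentile, the mean over probe sets, no suffixed probe sets, every probe set on its own, eBayes without trend, array weights, a replicate block, a threshold of 0.10 and leaving out each array. Every probe set without a filter was added after seeing the data. The number of arrays limits the precision. The labels call replicates biological but do not name separate cultures, so p-values measure only the spread between these samples, which may be partly technical.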

Additional observations from a re-analysis of the deposited data

How the results depend on the processing

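The count of changed genes (2729, of which 1411 higher and 1318 lower at day 4) was 1796 with the mean over probe sets (865 higher) and 4312 with array weights (2163 higher and 2149 lower). With every probe set on its own, 2155 were higher. When single arrays were left out it ran from 1582 (without day 3 replicate 3) to 3530 (without day 4 replicate 1), with 866 to 1750 higher and 716 to 1780 lower, and it was 1808 without day 3 replicate 2 (845 lower). Of the FGF genes, 4 changed, all lower, against 2 with the mean over probe sets, 2 to 4 with arrays left out, and 0 higher under every alternative run. With the replicate block 3 FGF genes and 2884 genes changed, the only FGF call lost was Fgfr1, and Etv4 passed (adjusted p = 0.0235). The within-array shift of Fgf18 minus Fgf8 ran from -0.051 (without day 3 replicate 2) to 0.98, and the other 4 kept their direction in every alternative run. Changes near 0 reversed for Fgf3 (-0.11 to 0.16 with arrays left out, 0.13 without day 4 replicate 2 and 0.16 without day 3 replicate 3), Fgf4 (-0.20 to 0.00057, the highest without day 4 replicate 1) and Tbx6 (-0.30 to 0.026, the highest without day 4 replicate 3). The cause of these shifts was not tested. Dim probe sets near the filter level limit what can be said of Fgf4, Fgf15, Fgf17 and Fgf18.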

Other observations

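Genes that adjoin the FGF genes in the RefSeq annotation (GRCm38.p6, protein-coding neighbours) gave the following values. Prdm8, next to Fgf5, changed by 0.03 ± 0.24 (limma adjusted p = 0.944). Fbxw4, next to Fgf8, rose by 0.56 ± 0.14 (adjusted p = 0.0205). Wdr11, next to Fgfr2, rose by 0.40 ± 0.08 (adjusted p = 0.00575), and Letm2, next to Fgfr1, changed by 0.16 ± 0.21 (adjusted p = 0.629). The other tested neighbours outside the group did not pass. Ate1, also next to Fgfr2, changed by 0.39 ± 0.14, and LTO1, next to Fgf15, by 0.40 ± 0.15 (adjusted p = 0.0717 and 0.084). Dmtn, next to Fgf17, changed by -0.25 ± 0.30, and 4930550L24Rik, next to Fgf13, by -0.41 ± 0.33 (adjusted p = 0.592 and 0.408). Npm1, next to Fgf18, changed by -0.02 ± 0.04 (adjusted p = 0.792). Of all genes tested, 22.2% passed in either direction. Fgf6 and Fgf11, named after their values were seen, lay under the filter level but were higher on every day 4 array than on any day 3 array. Fgf6 read 19.1, 16.7 and 14.2 at day 4, against 5.71, 2.58 and 2.65 at day 3, and Fgf11 read 10.4, 9.73 and 12.4 at day 4, against 1.59, 2.69 and 1.40 at day 3 (limma adjusted p = 0.0322 for Fgf6 and 0.0266 for Fgf11 with every probe set tested on its own without a filter).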
